A study of Mus musculus with 18 samples.

Results

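The CC chemokine genes examined here were Ccl2, Ccl5, Ccl6, Ccl7, Ccl9, Ccl17, Ccl20, Ccl22, Ccl25 and Ccl28, found in the gene tables by the Entrez identifiers that carry these symbols. All 10 had a row among the 36528 genes listed. Reads in at least 1 of the 18 samples were found for 9 of 10, and 6 of 10 passed the filter on low counts described below.

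The samples were primary renal proximal tubulo-interstitial epithelial cells (RPTEC) of C57BL/6 mice, bought from a commercial supplier and sequenced by RNASeq. TWEAK is a cytokine of the TNF family that signals through the receptor Fn14 (Tnfrsf12a), and NIK SMI1 is a small molecule inhibitor of NIK, the kinase of the non-canonical NF-κB pathway. The 6 groups were vehicle (DMSO), TWEAK at 100 ng/mL and TWEAK at 100 ng/mL with 3 μM NIK SMI1, each collected at 6 h and 24 h with 3 samples a group. No group received NIK SMI1 alone, and the sources name no separate animals or cell preparations, so that p-values measure the spread between these samples, which may be technical.

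CC chemokines are small secreted proteins with adjacent cysteines near the amino terminus that attract leukocytes along a gradient by binding CC receptors on their surface. Inflamed tubular epithelium secretes several of them, and the receptor each one binds decides which leukocytes follow. Ccl9 and Ccl6 are ligands of CCR1, Ccl2 and Ccl7 of CCR2, Ccl5 of CCR1 and CCR3, Ccl20 of CCR6, Ccl17 and Ccl22 of CCR4, Ccl25 of CCR9, and Ccl28 of CCR10 and CCR3. NF-κB dimers bind κB sites in the promoters of many chemokine genes.

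To show what lies before the start of genes that were and were not called with TWEAK, the 120 bases upstream of Ccl9, Ccl20 and Ccl6 were read from RefSeq (GRCm38.p6). Ccl9 and Ccl6 are neighbours on chromosome 11 (minus strand), at chr11:83578637-83578756 and chr11:83593088-83593207, and Ccl20 lies on chromosome 1 (plus strand), at chr1:83116646-83116765. Capitals mark a match to the 10-base κB consensus on either strand.
Ccl9: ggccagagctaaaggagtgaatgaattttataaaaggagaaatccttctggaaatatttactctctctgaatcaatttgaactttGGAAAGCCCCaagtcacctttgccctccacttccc
Ccl20: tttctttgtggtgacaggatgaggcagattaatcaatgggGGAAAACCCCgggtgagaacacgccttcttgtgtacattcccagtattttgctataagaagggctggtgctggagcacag
Ccl6: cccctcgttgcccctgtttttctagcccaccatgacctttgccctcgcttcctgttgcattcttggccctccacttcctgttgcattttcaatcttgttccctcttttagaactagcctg
A window was at hand for 7 of the 10 genes, with Ccl2, Ccl5 and Ccl7 missing. The match lay from base -35 to base -26 in Ccl9 and from base -80 to base -71 in Ccl20, counted back from the start. No match was found in the 250 bases upstream of Ccl6, Ccl17, Ccl22, Ccl25 (2 starts) and Ccl28. Among these, Ccl17 did not pass the filter on low counts, but its TWEAK samples lay above its vehicle samples at both times. Whether a match goes with a TWEAK call was not tested. Of 32851 such windows of mouse genes, 7.25% held a match, and a match describes letters only.

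Each sample had 18040966 to 51956444 reads on genes. Values are CPM (reads scaled to 1000000 reads on genes in the sample), and 3 reads correspond to 0.0577 to 0.166 CPM depending on the sample. Testing was limited to the 15521 genes with over 10 reads in no fewer than 4 samples, and a gene was called at an adjusted p-value below 0.05 in edgeR. The epithelial identity of the cells was visible in Krt18, at 3493 to 4939 CPM, and in 11 of 12 tubular epithelial markers that passed the filter. The 8 proximal tubule markers summed to only 10.7 to 14.6 CPM, and Slc34a1, Slc22a6 and Hnf4a had at most 2 reads in any sample.

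**Figure D1:**
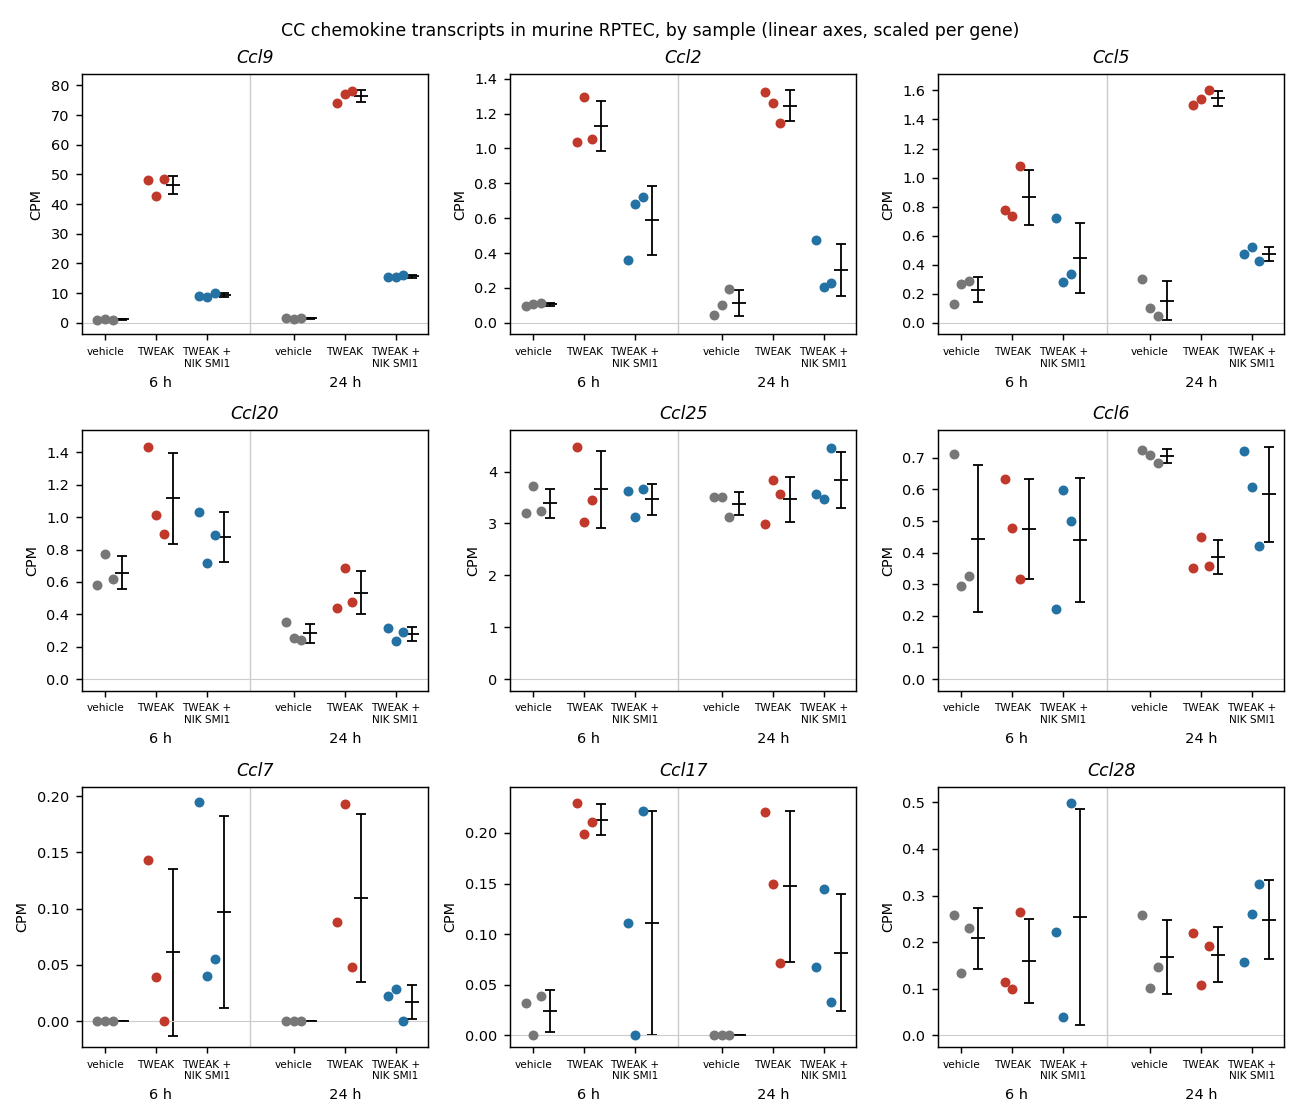
CPM of the 9 CC chemokine genes with reads in each of the 18 samples (points), with the mean and SD of the 3 samples of each group (black); each panel has its own linear axis in CPM, with 6 h on the left and 24 h on the right. Ccl9 reached 42.9 to 78.0 CPM with TWEAK and stayed at 8.58 to 16.2 CPM with NIK SMI1, whereas Ccl25 lay between 3.00 and 4.48 CPM in all 18 samples.

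TWEAK raised 4 of the 6 tested genes at 6 h (Ccl9, Ccl2, Ccl5 and Ccl20) and 3 at 24 h (Ccl9, Ccl2 and Ccl5), and lowered none. Over all tested genes, 11.7% were higher and 12% lower with TWEAK at 6 h, and 18.3% higher and 20.7% lower at 24 h. The filter bears on this count: Ccl2 and Ccl5 had over 10 reads in 0 and 2 of the 6 vehicle samples and passed through samples with TWEAK, so that they were tested because they were high there. The other 4 genes had over 10 reads in 4 or more vehicle samples. In bulk samples, a change in the number of cells that express a gene and a change in RNA per cell cannot be told apart.

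Ccl9 (GeneID 20308), which encodes MIP-1γ, was the most abundant CC chemokine transcript in cells with TWEAK. In the vehicle samples at 6 h it stood at 1.10, 1.26 and 1.08 CPM, and in the TWEAK samples at 48.0, 42.9 and 48.3 CPM. The vehicle samples of 24 h had 1.497, 1.42 and 1.61 CPM and the TWEAK samples 74.2, 77.0 and 78.0 CPM. Every TWEAK sample therefore lay far above every vehicle sample, and all 3 TWEAK samples of 24 h lay above all 3 of 6 h. The rise was 40.9-fold at 6 h (log2 fold change 5.36, standard error 0.0834, adjusted p = 1.61e-25) and 50.6-fold at 24 h (5.66, standard error 0.0842, adjusted p = 2.49e-26). By size of fold change, Ccl9 held rank 4 of the 15521 genes at 6 h and rank 9 at 24 h. The difference between its 2 TWEAK effects, 0.31 on the log2 scale (95% interval from -0.04 to 0.65), did not pass the test (adjusted p = 0.31).

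With NIK SMI1, Ccl9 fell in all samples but not to the level of vehicle. The TWEAK samples with NIK SMI1 had 9.10, 8.58 and 9.92 CPM at 6 h and 15.3, 15.5 and 16.2 CPM at 24 h. These values lay below every TWEAK sample and above every vehicle sample of the same time. The decrease was 5.08-fold at 6 h (log2 fold change -2.35, standard error 0.0634, adjusted p = 8.77e-20) and 4.91-fold at 24 h (-2.30, standard error 0.0551, adjusted p = 4.47e-21). Ccl9 and Ccl2 were the 2 of the 6 genes called higher than vehicle in the presence of TWEAK and NIK SMI1, at both times, where 7.23% of all tested genes were higher at 6 h and 8.07% at 24 h. Ccl9 remained 8.05-fold higher at 6 h (adjusted p = 3.73e-17) and 10.3-fold higher at 24 h (adjusted p = 2.61e-19). On the CPM scale, 82.2% ± 1.49 (SD over the 3 samples with NIK SMI1) of the TWEAK rise was absent at 6 h and 81.1% ± 0.621 at 24 h. On a log2 scale these shares were 44.5% and 40.9%. Of the 50-base stretches in the transcripts of Ccl9, 1.97% also occur in those of other genes.

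Ccl6 (GeneID 20305), the neighbour of Ccl9 and likewise a ligand of CCR1, was called in none of the comparisons. It was detected in all 18 samples, with 8 to 32 reads. At 6 h, its 3 vehicle samples ranged from 0.294 to 0.713 CPM, the TWEAK samples from 0.317 to 0.632 CPM and those with NIK SMI1 from 0.223 to 0.599 CPM. At 24 h, the vehicle samples had 0.725, 0.710 and 0.683 CPM and the TWEAK samples 0.353, 0.450 and 0.359 CPM. All TWEAK samples of 24 h thus lay below the vehicle samples, but the difference of -0.85 on the log2 scale (standard error 0.379) did not pass the test (adjusted p = 0.0803). It passed when the 24 h samples were fitted without those of 6 h (adjusted p = 0.0478). The TWEAK samples with NIK SMI1 at 24 h, at 0.423 to 0.722 CPM, overlapped both other groups.

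Ccl2 (GeneID 20296) encodes MCP-1, the main attractant of CCR2-bearing monocytes. Vehicle samples held 3, 4 and 6 reads at 6 h (0.0972, 0.107 and 0.116 CPM) and 2, 2 and 4 reads at 24 h (0.0468, 0.102 and 0.195 CPM). With TWEAK they held 36, 65 and 40 reads at 6 h (1.03, 1.29 and 1.06 CPM) and 30, 59 and 48 reads at 24 h (1.32, 1.26 and 1.15 CPM). The groups did not overlap at either time. Ccl2 rose 10.3-fold at 6 h (log2 fold change 3.37, standard error 0.381, adjusted p = 7.57e-08) and 12.2-fold at 24 h (3.61, standard error 0.434, adjusted p = 1.22e-07). The few reads with vehicle limit how well the size of the rise is known, and leaving out single samples at 24 h gave log2 values from 3.02 (without vehicle sample 1) to 4.19 (without vehicle sample 3).

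NIK SMI1 lowered Ccl2 at both times. At 6 h the 3 samples had 0.362, 0.679 and 0.721 CPM, all below the TWEAK samples, and the difference was -1.03 on the log2 scale (standard error 0.309, adjusted p = 0.0287). This call was lost without TWEAK sample 2 or without NIK SMI1 sample 1 of 6 h, with values from -1.20 to -0.71 (adjusted p up to 0.22), and in DESeq2 (adjusted p = 0.0504). At 24 h the samples had 0.474, 0.203 and 0.228 CPM, and the decrease of 1.97 on the log2 scale (standard error 0.317, adjusted p = 3.64e-05) was kept without any single sample. The share of the TWEAK rise that was absent was 52.9% ± 19.2 at 6 h and 83.4% ± 13.3 at 24 h (SD, n = 3). The difference between the NIK SMI1 effects at the 2 times (-0.93 on the log2 scale, 95% interval from -1.87 to 0.01) did not pass the test (adjusted p = 0.275). Against vehicle, Ccl2 remained 5.05-fold higher at 6 h (adjusted p = 0.000658). At 24 h it was 3.13-fold higher (adjusted p = 0.0345), a call lost without vehicle sample 1, vehicle sample 2 or NIK SMI1 sample 1, with log2 values from 1.05 to 2.22 over the fits without single samples.

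Ccl7 (GeneID 20306), which encodes MCP-3 and shares CCR2 with Ccl2, had too few reads for the test. All 6 vehicle samples held 0 reads. TWEAK samples held 5, 2 and 0 reads at 6 h and 2, 9 and 2 at 24 h. With NIK SMI1 there were 7, 1 and 1 reads at 6 h and 1, 1 and 0 at 24 h. Sample 1 held 5 of the 7 TWEAK reads of 6 h, and sample 2 held 9 of the 13 of 24 h. The TWEAK reads of a group were pooled and set against a floor of 3 reads over the 3 vehicle samples. This bound covers counting error in vehicle only and takes the TWEAK reads as exact. Ccl7 was 3.23-fold above the floor with TWEAK at 24 h, 1.71-fold without TWEAK sample 2 and 1.57-fold without vehicle sample 1. At 6 h it was 2.28-fold above, but at 0.909 of the floor without TWEAK sample 1. Without the filter, edgeR gave an adjusted p of 0.0917 at 6 h and 0.0262 at 24 h for TWEAK against vehicle, and 0.245 at 24 h for NIK SMI1 against TWEAK. TWEAK with NIK SMI1 against vehicle at 6 h gave 0.032.

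Ccl5 (GeneID 20304) encodes RANTES, which attracts T cells and monocytes. At 6 h the vehicle samples had 0.130, 0.267 and 0.289 CPM and the TWEAK samples 0.776, 0.736 and 1.08 CPM. The vehicle samples of 24 h had 0.304, 0.102 and 0.0488 CPM and the TWEAK samples 1.498, 1.54 and 1.60 CPM. The TWEAK samples were above the vehicle samples at both times, and those of 24 h were above those of 6 h. The rise was 3.60-fold at 6 h (log2 fold change 1.85, standard error 0.366, adjusted p = 0.000316) and 8.12-fold at 24 h (3.02, standard error 0.394, adjusted p = 5.04e-07). Vehicle sample 1 of 24 h held 13 of the 16 vehicle reads of that time, and the 24 h log2 value was 4.31 without it (adjusted p = 1.01e-06) and 2.70 or more without any other single sample. The larger value at 24 h was not a tested difference: the interaction was 1.18 on the log2 scale (95% interval from -0.04 to 2.39, adjusted p = 0.263), and 2.46 without that vehicle sample (adjusted p = 0.0616).

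With NIK SMI1 at 6 h, Ccl5 had 0.724, 0.280 and 0.333 CPM, below all TWEAK samples but spread widely. Its log2 fold change of -0.84 (standard error 0.352) did not pass the test (adjusted p = 0.142), and without NIK SMI1 sample 1, the highest of the 3, it was -1.51 and passed (adjusted p = 0.0301). The samples of 24 h lay close together at 0.474, 0.522 and 0.423 CPM. There Ccl5 fell 3.26-fold (log2 fold change -1.71, standard error 0.311, adjusted p = 0.000176), and 77.0% ± 3.56 of the TWEAK rise was absent. Against vehicle at 24 h all 3 samples were still above, with a log2 difference of 1.32 (standard error 0.469, adjusted p = 0.0526) that passed in DESeq2 (adjusted p = 0.0437), without the filter (0.0344), with the 24 h samples fitted alone (0.0367) and without vehicle sample 1 (log2 difference 2.60, adjusted p = 0.00965).

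**Figure D2:**
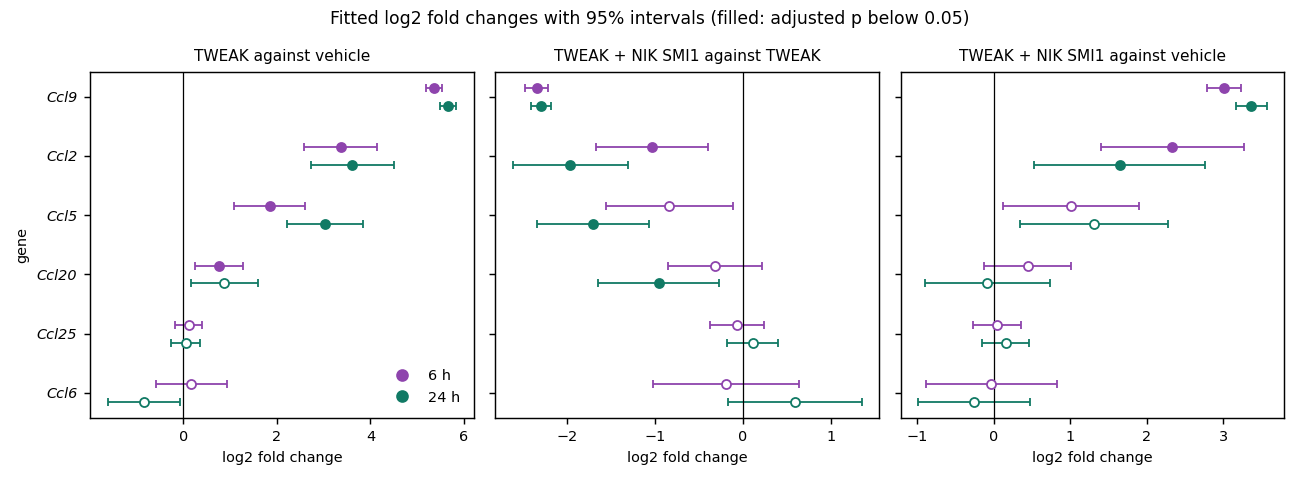
Fitted log2 fold changes (x axis) of the 6 tested CC chemokine genes (y axis) with 95% intervals from edgeR, at 6 h (purple) and 24 h (green), for TWEAK against vehicle, TWEAK with NIK SMI1 against TWEAK, and TWEAK with NIK SMI1 against vehicle; filled points had an adjusted p below 0.05. Ccl9 stands at 5.36 and 5.66 with TWEAK and at -2.35 and -2.30 with NIK SMI1, while the intervals of Ccl25 include 0 in all 6 comparisons.

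NIK SMI1 lowered 2 of the 6 tested genes at 6 h (Ccl9 and Ccl2) and 4 at 24 h (Ccl9, Ccl2, Ccl5 and Ccl20), and raised none. Over all tested genes 5.7% were lower and 5.34% higher at 6 h, and 8.29% lower and 10.2% higher at 24 h. These comparisons use the same TWEAK samples as those with vehicle, so that the values of a gene in both are not independent.

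Ccl20 (GeneID 20297), whose product binds CCR6 on Th17 cells and dendritic cells, was called higher with TWEAK at 6 h and lower with NIK SMI1 at 24 h. At 6 h the vehicle samples had 0.583, 0.775 and 0.616 CPM and the TWEAK samples 1.44, 1.01 and 0.898 CPM. In the 24 h samples, vehicle stood at 0.351, 0.254 and 0.244 CPM and TWEAK at 0.441, 0.685 and 0.478 CPM. TWEAK samples were above vehicle at both times, but all TWEAK samples of 24 h were below those of 6 h. The rise at 6 h was 1.69-fold (log2 fold change 0.76, standard error 0.253, adjusted p = 0.0284), and at 24 h the value of 0.88 (standard error 0.352) missed the threshold (adjusted p = 0.0505). The 24 h value passed without TWEAK sample 1 of that time (adjusted p = 0.045). The call at 6 h was lost in DESeq2 (adjusted p = 0.0702) and without vehicle sample 1, vehicle sample 3 or TWEAK sample 1 (log2 values from 0.56 to 0.89).

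In vehicle alone, Ccl20 fell between 6 h and 24 h by 1.20 on the log2 scale (standard error 0.339, adjusted p = 0.00814), with no overlap between the samples. Of the 6 genes it was the 1 called in that comparison, in which 29.9% of all tested genes were called in either direction. With NIK SMI1, Ccl20 had 1.03, 0.719 and 0.887 CPM at 6 h, overlapping the TWEAK samples. At 24 h it had 0.316, 0.232 and 0.293 CPM, below all TWEAK samples and overlapping vehicle. The decrease at 24 h was 1.94-fold (log2 fold change -0.96, standard error 0.333, adjusted p = 0.0447), and this call was lost in DESeq2 (adjusted p = 0.0839), with the 24 h samples fitted alone (adjusted p = 0.0634) and in 5 of the 6 fits without 1 sample (all but that without TWEAK sample 1).

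Ccl17 and Ccl22 encode the ligands of CCR4, a receptor of Th2 and regulatory T cells. Ccl17 (GeneID 20295) had 1, 0 and 2 reads with vehicle and 8, 10 and 8 with TWEAK at 6 h, and 0, 0 and 0 with vehicle and 5, 7 and 3 with TWEAK at 24 h. TWEAK samples were above vehicle samples at both times. At 24 h Ccl17 was 3.73-fold above the floor of 3 reads per group (1.81-fold without vehicle sample 1), with the TWEAK reads again taken as exact. Samples with NIK SMI1 held 4, 0 and 4 reads at 6 h and 3, 5 and 1 at 24 h, and overlapped those with TWEAK in CPM. Ccl17 did not pass the filter, and without the filter TWEAK against vehicle gave an adjusted p of 0.0131 at 6 h and 0.00633 at 24 h in edgeR, and NIK SMI1 against TWEAK 0.649 and 0.71. Ccl22 (GeneID 20299) had 0 of 626048357 reads over the 18 samples, which allows a level of up to 0.00479 CPM over the 18 samples pooled, a limit that covers counting error only. For a single group the limit is higher, for example 0.02495 CPM for vehicle at 6 h and 0.03616 CPM for vehicle at 24 h.

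Ccl25 and Ccl28 encode chemokines of epithelial surfaces that attract CCR9-bearing and CCR10-bearing lymphocytes. Ccl25 (GeneID 20300) was present in every sample with 64 to 179 reads. At 6 h the vehicle samples had 3.21, 3.72 and 3.23 CPM, the TWEAK samples 4.48, 3.02 and 3.46 CPM, and those with NIK SMI1 3.62, 3.11 and 3.66 CPM. At 24 h the vehicle samples had 3.51, 3.50 and 3.12 CPM, the TWEAK samples 3.00, 3.83 and 3.56 CPM, and those with NIK SMI1 3.57, 3.48 and 4.45 CPM. All groups overlapped. The log2 difference for TWEAK against vehicle was 0.11 at 6 h (95% interval from -0.18 to 0.40) and 0.05 at 24 h (from -0.26 to 0.36), and for NIK SMI1 against TWEAK -0.07 at 6 h (from -0.37 to 0.24) and 0.11 at 24 h (from -0.18 to 0.40). Of the 50-base stretches in the transcripts of Ccl25, 2.06% also occur in transcripts of Elavl1, and the kit does not mark strand, so that such reads cannot be told apart. This is a share of sequence, and how many of the reads counted for Ccl25 came from these stretches was not determined. Ccl28 (GeneID 56838) had 1 to 12 reads in each sample, below the filter, and its groups overlapped, with means from 0.160 CPM (TWEAK, 6 h) to 0.254 CPM (TWEAK with NIK SMI1, 6 h).

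**Figure D3:**
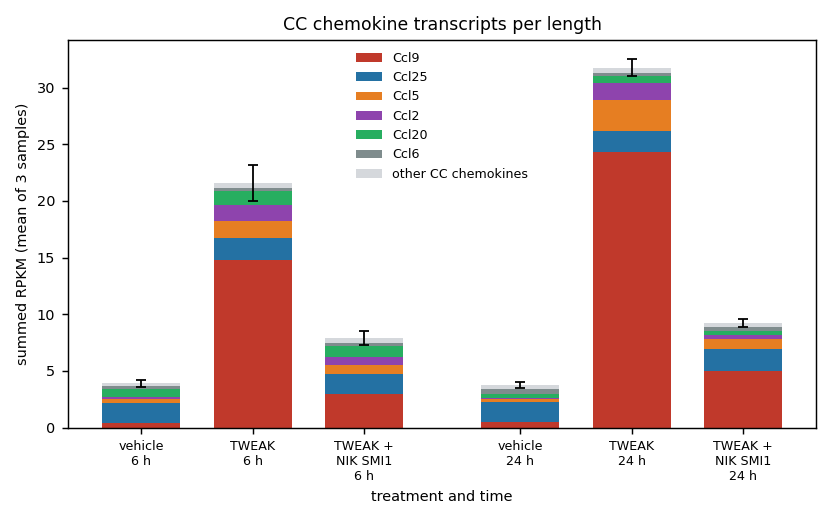
RPKM of the CC chemokine genes (y axis, stacked means of 3 samples) in the 6 groups of treatment and time, with the SD of the sum (black bars). The sum rose from 3.91 RPKM with vehicle to 21.6 RPKM with TWEAK at 6 h and from 3.79 to 31.8 RPKM at 24 h, and Ccl9 (red) makes up most of the added height.

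Levels of different genes were compared per length, on the RPKM values of the files. In vehicle at 6 h, Ccl25 led with 1.76 ± 0.148 RPKM, followed by Ccl20 with 0.733 ± 0.113 (SD, n = 3), and the samples of these genes did not overlap. The Ccl25 values, here and in the shares of the family below, may include reads of Elavl1 from the stretches named above. Ccl5 (0.413), Ccl9 (0.366) and Ccl6 (0.299) came next with overlapping samples, and Ccl2 (0.127) lay below all of them. With TWEAK at 6 h, Ccl9 stood at 14.8 ± 1.03 RPKM, far above Ccl25 (1.90), Ccl5 (1.56), Ccl2 (1.34) and Ccl20 (1.24), whose samples overlapped from neighbour to neighbour. With TWEAK at 24 h, Ccl9 stood at 24.3 ± 0.559 RPKM, followed by Ccl5 at 2.79 ± 0.0886 and Ccl25 at 1.79 ± 0.214, which no longer overlapped each other.

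The makeup of the family shifted accordingly. Summed over these 10 genes and the 14 other mouse CC chemokine genes, Ccl25 made up 45.1% ± 1.14 and Ccl9 9.37% ± 0.37 of RPKM in vehicle at 6 h. With TWEAK at 6 h, Ccl9 made up 68.6% ± 1.32 and Ccl25 8.74% ± 1.27 (SD, n = 3). At 24 h the share of Ccl9 went from 12.8% ± 1.49 with vehicle to 76.6% ± 0.836 with TWEAK. With NIK SMI1 it was 36.9% ± 1.79 at 6 h and 54.0% ± 1.69 at 24 h, between those of vehicle and TWEAK in every sample. The sum of all CC chemokine genes with NIK SMI1 was 7.94 ± 0.618 RPKM at 6 h and 9.24 ± 0.343 RPKM at 24 h, below that with TWEAK in every sample.

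Of the 14 other CC chemokine genes, 10 had no read in any sample, and Ccl3, Ccl4 and Ccl12 had reads but did not pass the filter. Ccl27a was the only 1 tested, and it was called in none of the comparisons of treatments. Among 15 CC receptors and scavengers, 6 had no read and 2 were tested. Ccr7, the receptor of lymph node homing, rose from 0.0153 to 0.209 CPM at 6 h (adjusted p = 0.00221) and from 0.0169 to 0.715 CPM at 24 h (adjusted p = 1.44e-06). Its vehicle samples held 0 or 1 read, and it passed the filter through samples with TWEAK. With NIK SMI1 it had 0.127 CPM at 6 h, overlapping the TWEAK samples (log2 difference -1.01, adjusted p = 0.367), and it fell to 0.230 CPM at 24 h (log2 fold change -1.65, standard error 0.407, adjusted p = 0.00429). Ackr4, a scavenger of several CC chemokines, was called in neither TWEAK nor NIK SMI1 comparison.

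The genes of NF-κB control were measured well, and 19 of 19 were tested. TWEAK raised 16 of them at 6 h and lowered none, and raised 16 and lowered 1 (Chuk) at 24 h, where 11.7% and 18.3% of all tested genes were higher at the 2 times. Their median log2 fold change was 0.77 at 6 h and 0.75 at 24 h, against -0.003 and -0.006 over all tested genes. The largest rises were those of Traf1, an adaptor of TNF receptors (log2 fold change 4.36 at 6 h and 5.68 at 24 h), the inhibitors Nfkbie (2.47 and 2.93) and Nfkbia (2.56 and 2.77), the ubiquitin ligase gene Birc3 (2.48 and 2.83), and Nfkb2, which encodes the p100 precursor of p52 (1.90 and 1.87). With NIK SMI1, 11 of the 19 were lower and 2 higher at 6 h, and 15 lower and 1 higher at 24 h, against 5.7% and 8.29% of all tested genes lower. Traf1 fell by 1.92 at 6 h and 2.43 at 24 h on the log2 scale, and Nfkb2 fell by 0.39 and 0.55. The 2 genes that were higher at 6 h, named after their values were seen, were Tnfrsf12a and Map3k14, which encodes NIK. Map3k14 was raised by TWEAK (0.86 at 6 h and 0.95 at 24 h) and stood a further 0.43 and 0.33 higher with NIK SMI1.

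Over the 18 samples, the genes whose log2 CPM moved most like that of Ccl9 were Slc26a1 (Pearson r = 0.993), Traf1 (0.990) and Arhgef40 (0.988). Traf1 went from 1.18 to 22.9 CPM with TWEAK at 6 h and from 1.15 to 57.5 CPM at 24 h, and stood at 6.05 and 10.7 CPM with NIK SMI1. The 18 samples share 6 treatments, which these values mostly follow. The closest genes to Ccl25 reached only r = 0.724 (Prelid2), 0.724 (Ube2k) and 0.708 (Nmnat1).

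Leukocytes are a main source of several CC chemokines, and their markers were therefore counted in the same samples. Of 16 markers, Cd3e, Cd3g and Tyrobp had no read in any sample, Ptprc had 0 to 11 reads and Lyz2 at most 1 read. Only Csf1r, Cd68 and Cd74 passed the filter. The summed level of the 16 markers was 18.7 to 19.8 CPM with vehicle, 19.8 to 21.6 CPM with TWEAK and 19.1 to 19.3 CPM with NIK SMI1 at 6 h. At 24 h it was 21.7 to 23.1, 25.6 to 27.2 and 20.6 to 21.4 CPM. The sum was thus higher in every TWEAK sample than in every vehicle sample at 24 h, whereas these groups overlapped at 6 h. Csf1r and Cd68 made up most of it. With vehicle and TWEAK at 24 h, Csf1r stood at 8.10 and 11.9 CPM and Cd68 at 13.4 and 12.9 CPM. With NIK SMI1 the sum lay below every vehicle sample of 24 h. At 24 h, Csf1r and Cd74 were called higher with TWEAK and lower with NIK SMI1, and Cd68 was called in neither comparison.

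Markers of endothelium and of the epithelium itself also moved. Of 6 endothelial markers, Emcn had no read and only Cdh5, a junction cadherin, passed the filter. Their summed level was 0.195 to 0.507 CPM with vehicle, 0.573 to 0.813 CPM with TWEAK and 0.325 to 0.638 CPM with NIK SMI1 at 24 h. Cdh5 was called higher with TWEAK at 24 h (2.98-fold, adjusted p = 0.0307), with overlapping samples, and was not called with NIK SMI1 against TWEAK (adjusted p = 0.58). Of the 11 tested tubular epithelial markers, TWEAK lowered 6 and raised 4 at 6 h and lowered 8 and raised 2 at 24 h, and NIK SMI1 raised 5 and lowered 1 at 6 h and raised 7 and lowered 2 at 24 h. The 12 listed summed to 11777 to 11929 CPM with vehicle, 10531 to 10700 CPM with TWEAK and 11260 to 11432 CPM with NIK SMI1 at 24 h. The part of leukocyte, endothelial and epithelial transcripts in the chemokine values was not tested.

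Transcripts of pancreatic islet genes also differed between groups. Their 8 markers summed to 14.9 to 31.2 CPM in the 6 h groups and in vehicle at 24 h, to 0.235 to 14.1 CPM with TWEAK at 24 h and to at most 0.0870 CPM with NIK SMI1 at 24 h. TWEAK sample 2 of 24 h had no Ins2 read, and Ccl9 stood at 77.0 CPM in it, between the other 2 samples. A fit with that sample as the only TWEAK sample of 24 h, chosen after its islet reads were seen, takes the spread of that group from the other groups, and is given as values with no call. In it, the log2 fold changes for TWEAK against vehicle were 5.66 for Ccl9, 3.63 for Ccl2 and 3.01 for Ccl5, and for NIK SMI1 against TWEAK -2.30, -1.99 and -1.69. The part of the islet transcripts in the chemokine values was not tested.

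The TWEAK and NIK SMI1 effects were also compared between 6 h and 24 h as interactions. None of the 6 tested chemokine genes passed in either, by edgeR or by DESeq2, and 0 had an unadjusted p below 0.05 in edgeR. Over all tested genes, 8.91% passed for TWEAK and 4.74% for NIK SMI1. With only 6 genes, a count of 0 does not differ clearly from these shares. The lowest unadjusted p-values in edgeR were 0.0519 for the NIK SMI1 effect on Ccl2 and 0.0582 for the TWEAK effect on Ccl5.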

How the data were processed

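RNA of 18 RPTEC samples was made into TruSeq libraries, which do not mark strand. The labels and the study's methods differ on sequencer, read length and input RNA. HTSeqGenie, which runs the aligner GSNAP, was used to place reads on NCBI build 37 of the mouse (versions not given in the sources used here), and the authors deposited for each Entrez gene the count of uniquely aligned reads in its exons, without normalization. The same files hold the exonic length in bases and RPKM values, which the authors scaled by that length and by the reads of the sample. The submitters' processing notes name DESeq2.

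Symbols came from RefSeq (GRCm38.p6), which matched 31049 of 36528 identifiers. The counts were fitted in edgeR 4.0.16 (R 4.3.3; TMM, glmQLFit, glmQLFTest) as 6 groups over 15521 genes with more than 10 reads in at least 4 samples, with Benjamini-Hochberg adjustment. Standard errors came from the F statistic, or from the p-value where the Poisson bound of edgeR set it. Depth was 18040966 to 51956444 reads, and samples of a group differed by more than counting noise (chi-square per gene 2.19 to 9.95). The RPKM values entered no test. Similar genes were ranked by Pearson r of log2(CPM + 0.1) among tested genes, for chemokine genes with a mean above 1 CPM. From each pathway list, up to 6 called genes with the largest log2 fold change were named. The exceptions are stated in the text.

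The 10 genes, the pathway and marker lists, and the tests were chosen with earlier results of these data known. Alternatives were DESeq2 1.42.0, its size factors, library totals alone, no filter, filterByExpr, each time point alone, an added fold threshold (2-fold, or 1.5-fold for NIK SMI1 against TWEAK), a log2 scale and TMM library sizes for shares, and leaving out each sample. The fit with 1 TWEAK sample of 24 h, which takes the spread of that group from the others, was added after seeing the data. The edgeR fit was tested on simulated data for TWEAK against vehicle at 6 h. Changes were set only in genes with many reads, so that recovery of changes in genes with few reads was not tested. Every gene was drawn with the same fixed spread, so that genes or samples with a larger spread were not covered.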

Additional observations from a re-analysis of the deposited data

How the results depend on the processing

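Among the calls of TWEAK against vehicle and NIK SMI1 against TWEAK, those of Ccl9 at both times and of Ccl2 and Ccl5 at 24 h, and the TWEAK calls of Ccl2 and Ccl5 at 6 h, were made under every alternative run, leaving aside the fit with 1 TWEAK sample of 24 h, which is given as values only. Without the filter, 5 genes were called for TWEAK against vehicle at 24 h in place of 3, with Ccl7 and Ccl17 added. DESeq2 called 1 gene for NIK SMI1 against TWEAK at 6 h in place of 2. On a log2 scale, the share of the TWEAK rise absent with NIK SMI1 was 44.5% for Ccl9 at 6 h, and 40.9% for Ccl9, 66.7% for Ccl2 and 53.7% for Ccl5 at 24 h. The share of Ccl5 at 24 h ranged from 73.0% to 79.9% with single samples left out, with 73.0% without vehicle sample 1. The calls of Ccl20 for TWEAK at 6 h and NIK SMI1 at 24 h were also lost without the filter (adjusted p = 0.0571 and 0.0909), and the latter with each time point alone (0.0634).

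With single samples left out, the count of called genes ranged from 1 to 2 for NIK SMI1 against TWEAK at 6 h (1 without TWEAK sample 2), from 1 to 2 for TWEAK with NIK SMI1 against vehicle at 24 h (1 without vehicle sample 2 or NIK SMI1 sample 1) and from 1 to 2 for vehicle over time (2 without vehicle sample 1 of 6 h, with Ccl6 added at an adjusted p of 0.0344). It ranged from 3 to 4 for TWEAK against vehicle at 6 h and at 24 h, and for NIK SMI1 against TWEAK at 24 h.

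Signs turned only for values that were not called. With TWEAK sample 2 as the only TWEAK sample of 24 h, Ccl25 was at -0.005 for NIK SMI1 against TWEAK and at 0.057 for the TWEAK interaction, and with library totals alone it was at 0.006 for vehicle over time (log2). Without single samples, the log2 values for TWEAK against vehicle ranged from -0.048 to 0.61 for Ccl6 and from -0.049 to 0.24 for Ccl25 at 6 h, and from -0.026 to 0.12 for Ccl25 at 24 h. For NIK SMI1 against TWEAK they ranged from -0.55 to 0.22 for Ccl6 and from -0.20 to 0.09 for Ccl25 at 6 h, and from -0.002 to 0.19 for Ccl25 at 24 h. For TWEAK with NIK SMI1 against vehicle they ranged from -0.39 to 0.41 for Ccl6 and from -0.006 to 0.11 for Ccl25 at 6 h, and from -0.19 to 0.17 for Ccl20 at 24 h. For vehicle over time they ranged from -0.77 to 0.39 for Ccl2 and from -0.10 to 0.008 for Ccl25, and for the TWEAK interaction from -0.35 to 0.82 for Ccl2, from -0.13 to 0.37 for Ccl20 and from -0.19 to 0.10 for Ccl25. The cause of these changes was not tested. No paired analysis was possible because the labels give no replicate numbers. Genes with few reads (Ccl7, Ccl17 and Ccl28) limit what can be said of the family at this depth.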

Other observations

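Of 9 listed genes that process or present chemokines at the cell surface, 8 were tested. TWEAK raised 1 and lowered 5 at 6 h, where 11.7% of all tested genes were higher and 12% lower, and raised 2 and lowered 4 at 24 h, where 18.3% were higher and 20.7% lower. NIK SMI1 raised 2 and lowered 1 at 6 h (5.34% and 5.7% of all) and raised 2 and lowered 2 at 24 h (10.2% and 8.29% of all). Mmp9, a protease that cleaves several chemokines, rose from 3.75 to 16.2 CPM at 6 h (log2 fold change 2.14, standard error 0.091, adjusted p = 2.77e-16 in edgeR) and from 1.88 to 61.1 CPM at 24 h (5.02, standard error 0.102, adjusted p = 1.2e-23). With NIK SMI1 it fell to 5.67 CPM at 6 h (adjusted p = 4.77e-12) and to 11.0 CPM at 24 h (adjusted p = 2.96e-19).

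Sdc1 and Sdc4, the 2 proteoglycans of the list, carry heparan sulfate, to which chemokines bind, and both fell with TWEAK. Sdc1 fell from 353 to 261 CPM at 6 h (log2 fold change -0.42, adjusted p = 1.04e-10 in edgeR) and from 351 to 255 CPM at 24 h (-0.46, adjusted p = 1.08e-11), and Sdc4 from 318 to 254 CPM (-0.32, adjusted p = 4.06e-09) and from 298 to 255 CPM (-0.22, adjusted p = 1.16e-06). With NIK SMI1 both were higher than with TWEAK at both times, by 0.26 and 0.20 for Sdc1 and by 0.24 and 0.14 for Sdc4 on the log2 scale. Ndst1, Ext1 and Hs2st1, enzymes of heparan sulfate synthesis, fell with TWEAK at 6 h by 0.16, 0.12 and 0.10 on the log2 scale. At 24 h Ext1 and Hs2st1 fell by 0.11 and 0.24, whereas Ndst1 was at 0.08 and not called (adjusted p = 0.138), and its TWEAK effect differed between the 2 times (interaction 0.23, adjusted p = 0.00656). None of these 3 enzymes was called with NIK SMI1 against TWEAK at either time in edgeR (lowest adjusted p = 0.0897, with an unadjusted p below 0.05 for Ndst1 at 6 h and Hs2st1 at 24 h).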
